A study of Homo sapiens with 6 samples.

Results

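The 10 genes described here are regulators and markers of the epithelial-mesenchymal transition (EMT), measured in MCF10.AT1 cells and in MCF10.AT1-R, the fluvastatin-resistant line selected from them. VIM, CDH2 and FN1 are mesenchymal markers, CDH1 and ESRP1 are epithelial markers, and ZEB1, ZEB2, SNAI1, SNAI2 and TWIST1 are EMT transcription factors. They were chosen by name, by an exact match of the gene symbol, and all 10 were found among the 81496 symbols of the table. They carry 11 of the 135750 transcript probe sets, since VIM has a second probe set. Where a gene had more than 1 probe set, the probe set of the highest mean value on the 5 compared arrays was used.

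MCF10.AT1 is a preneoplastic human breast epithelial line, derived from MCF10A cells by transformation with activated HRAS, sensitive to fluvastatin and labelled untreated. MCF10.AT1-R was obtained from it in fluvastatin, an inhibitor of HMG-CoA reductase, at doses raised from 1 to 5 and up to 20 µM. Whether fluvastatin was present when the RNA was taken, and whether the resistant line is a clone, is not given in the sources used here. Total RNA was measured on Clariom D arrays, with 3 arrays deposited for each line. The values are log2 RMA values, so a difference of 1 is a doubling of the signal, and values of different genes cannot be set against each other. The arrays are described as biological replicates, and the resistant cultures share a single selection. The p-values therefore rest on the spread between arrays of these lines, which the filtered limma fit pooled over all its probe sets.

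Array A03 of MCF10.AT1 stood apart and was left out of the comparison, as in the study's methods. Its hybridization controls, transcripts added to every array, averaged 5.99, against 10.35 to 11.33 on the other 5 arrays. The lines were therefore compared with 2 arrays of MCF10.AT1 (A01, A02) and 3 of MCF10.AT1-R (B02, B03, B04). The array names match no sample label, and the line of each was read from the study's own plot of its arrays. The arrays of each line share a letter in the array name, so that line and whatever the letter stands for cannot be told apart. The background of an array was taken as the 95th percentile of its 612 negative control probe sets, which lay between 2.88 and 3.14 on the 5 arrays.

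During EMT epithelial cells lose cell-to-cell adhesion and polarity and take up mesenchymal traits. The ZEB, SNAI and TWIST factors repress CDH1, which encodes E-cadherin, by binding E-boxes in DNA, and ZEB1 also represses ESRP1, an RNA-binding protein that maintains epithelial splicing. VIM encodes the intermediate filament protein vimentin, CDH2 encodes N-cadherin and FN1 encodes the matrix protein fibronectin. The microRNAs of the miR-200 family and miR-205 repress ZEB1 and ZEB2, and ZEB1 in turn represses the miR-200 genes. Basal breast epithelial cells in culture, such as those of the MCF10A series, commonly express vimentin and SNAI2 together with E-cadherin.

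The resistant line showed lower VIM and ZEB1 and higher CDH1 and ESRP1. VIM was 3.12-fold lower and ZEB1 3.23-fold lower, whereas CDH1 was 2.46-fold and ESRP1 2.25-fold higher. These 4 genes passed an FDR of 5% in limma, after a filter on mean and SD over the 5 arrays of both lines together. CDH2, FN1, SNAI1, SNAI2, TWIST1 and ZEB2 did not pass. Over all 51457 probe sets tested, 1.20% passed, with 0.758% higher and 0.447% lower in MCF10.AT1-R. For 7 of the 10 genes the resistant arrays lay all above or all below both parental arrays, against 23.3% of all transcript probe sets. The median log2 change of the 10 genes was -0.27, and that of all transcript probe sets was 0.01. In bulk RNA, fewer cells expressing a gene and less RNA per cell cannot be told apart.

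**Figure D1:**
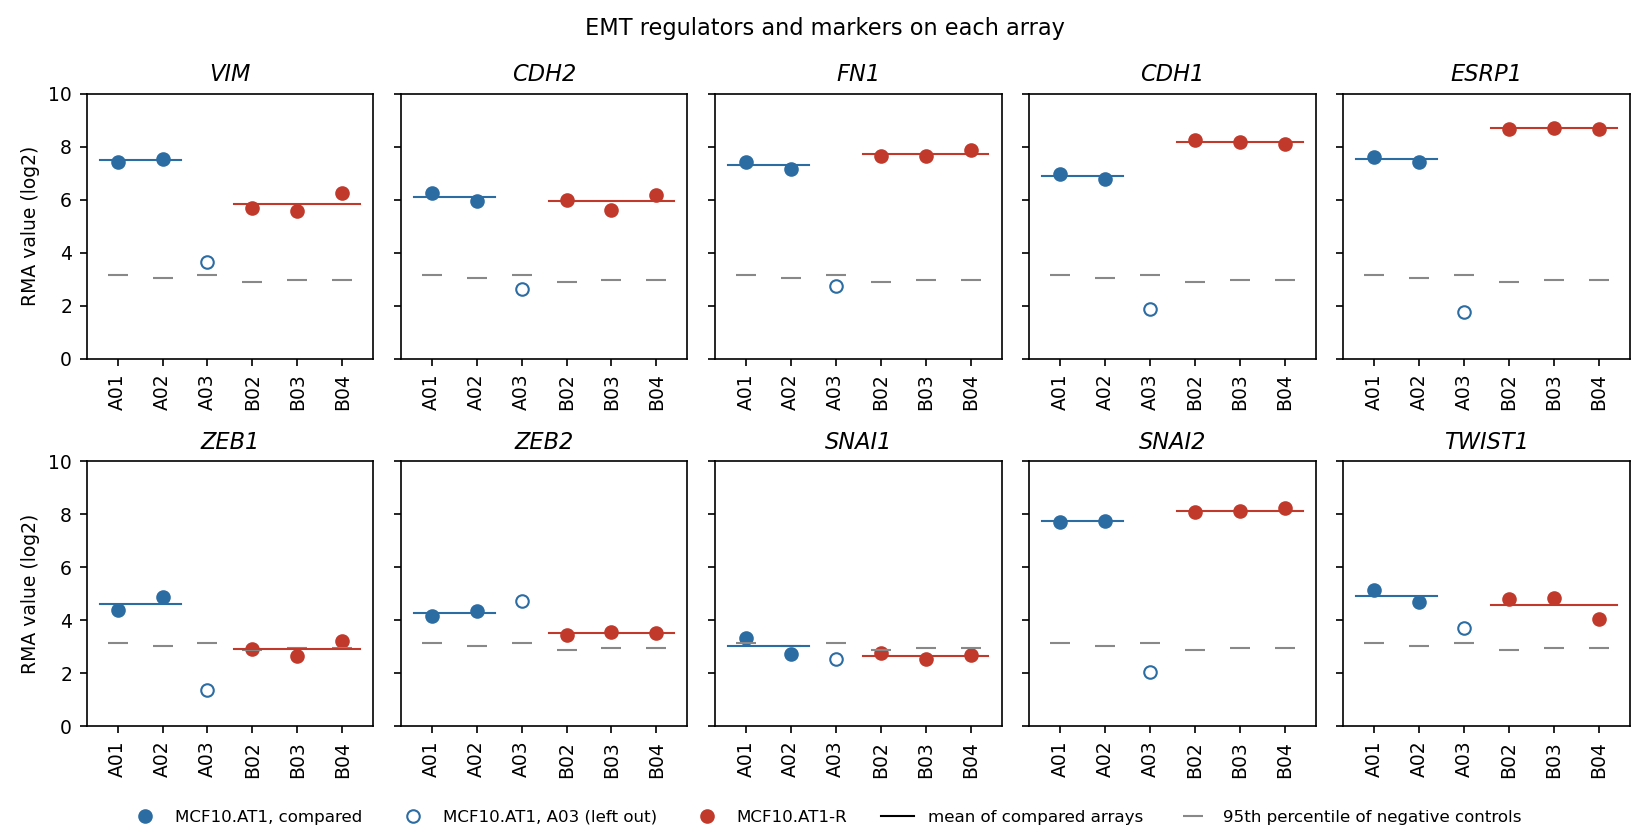
RMA values (log2, y axis) of the 10 genes on each of the 6 arrays (x axis). Filled blue points are the compared MCF10.AT1 arrays, the open point is A03, red points are MCF10.AT1-R, horizontal lines are the means of the compared arrays, and grey dashes mark the background of each array. VIM and ZEB1 are lower on all 3 resistant arrays than on A01 and A02, CDH1 and ESRP1 are higher, and A03 lies under its background for 7 of the 10 genes.

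Sequences of the microRNAs and of the promoters of ZEB1 and VIM are given before the values. The mature microRNAs below are the known repressors of ZEB1 and ZEB2, with the seed (bases 2 to 8) in capitals. They were taken from RefSeq (GRCh38.p14), 5′ to 3′.
hsa-miR-200b-3p: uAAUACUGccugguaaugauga
hsa-miR-200c-3p: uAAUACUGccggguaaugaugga
hsa-miR-429: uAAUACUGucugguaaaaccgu
hsa-miR-200a-3p: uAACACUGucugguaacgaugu
hsa-miR-141-3p: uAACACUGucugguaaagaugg
hsa-miR-205-5p: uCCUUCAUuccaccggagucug
The members of the miR-200 family thus fall into a group of 3 with the seed AAUACUG and a group of 2 with the seed AACACUG, and miR-205 has a seed of its own. Mature miR-200b-3p (chr1:1167160-1167181, plus strand), miR-200a-3p and miR-429 are encoded close together on chromosome 1, and miR-200c-3p and miR-141-3p on chromosome 12.

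The 250 bases upstream of the outermost start of ZEB1 and VIM, the pair of members that fell, are shown with E-boxes in capitals. E-boxes of the letters CAGGTG or CACCTG, which are the same site read on either strand, were searched. Both genes are on chromosome 10 and on the plus strand.
ZEB1, chr10:31318167-31318416: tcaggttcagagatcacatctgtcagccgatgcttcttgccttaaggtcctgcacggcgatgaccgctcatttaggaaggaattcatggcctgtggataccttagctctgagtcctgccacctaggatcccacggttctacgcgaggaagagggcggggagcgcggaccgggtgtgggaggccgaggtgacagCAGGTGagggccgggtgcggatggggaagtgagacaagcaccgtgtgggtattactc
VIM, chr10:17227991-17228240: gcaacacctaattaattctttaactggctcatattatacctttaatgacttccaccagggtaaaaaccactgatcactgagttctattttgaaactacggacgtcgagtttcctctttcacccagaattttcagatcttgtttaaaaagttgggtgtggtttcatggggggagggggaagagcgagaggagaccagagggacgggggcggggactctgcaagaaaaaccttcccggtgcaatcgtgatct
The ZEB1 window held 1 such E-box, starting 57 bases before the gene's start, and the VIM window held none. Among all 35116 promoter windows of this length 17.5% held at least 1. Windows were found for 5 of the 10 genes, and 2 of their 12 windows, both of ZEB1, held a match. CDH1, ESRP1, SNAI1, SNAI2 and TWIST1 had no window and were not searched. These matches describe the letters and were not tested as binding sites.

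The epithelial markers were higher in the resistant line. CDH1 read 6.97 and 6.79 on the MCF10.AT1 arrays and 8.25, 8.18 and 8.10 on the MCF10.AT1-R arrays. The lowest resistant array was thus above the highest parental array by more than the spread within either line, 6.88 ± 0.13 (SD, n = 2) against 8.18 ± 0.08 (SD, n = 3). On the log2 scale CDH1 rose by 1.30, with a standard error of 0.31 (adjusted p = 0.00481 from limma), and 0.165% of all transcript probe sets rose by as much. ESRP1 read 7.61 and 7.42 in MCF10.AT1 and 8.67, 8.69 and 8.68 in MCF10.AT1-R. The resistant arrays were nearly identical, with an SD of 0.01, and lay well above both parental arrays. ESRP1 rose by 1.17 on the log2 scale, with the same standard error (adjusted p = 0.0196 from limma).

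Among the mesenchymal markers VIM alone passed the test. VIM read 7.43 and 7.53 in MCF10.AT1 and 5.69, 5.57 and 6.25 in MCF10.AT1-R. The resistant arrays varied more among themselves than the parental ones, with B04 the highest, and none reached the parental level. VIM changed by -1.64 on the log2 scale (adjusted p = 3.95e-05 from limma), and 0.0339% of all transcript probe sets fell by as much. The second probe set of VIM lay within the background on all 5 arrays, at 1.55 to 2.30, and gives no level. CDH2 read 6.25 and 5.96 in MCF10.AT1 and 5.99, 5.61 and 6.19 in MCF10.AT1-R. Here the arrays of the lines overlapped, and the difference of -0.17 had a 95% interval from -0.78 to 0.44 (adjusted p = 0.896 from limma). FN1 read 7.41 and 7.17 in MCF10.AT1 and 7.64, 7.62 and 7.87 in MCF10.AT1-R. All resistant arrays were higher, but the difference of 0.43 did not pass the test (95% interval -0.18 to 1.04, adjusted p = 0.795 from limma).

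The transcription factors did not move as a group. ZEB1 read 4.37 and 4.86 in MCF10.AT1 and 2.92, 2.66 and 3.20 in MCF10.AT1-R. Both parental arrays lay above the background, while B03 was within it and B02 and B04 were just above. ZEB1 changed by -1.69 on the log2 scale (adjusted p = 1.9e-05 from limma), and by -1.59 with values under the background raised to it. With the 99th percentile of the negative controls as background the latter value was -0.59. ZEB2, the closest relative of ZEB1, read 4.16 and 4.35 in MCF10.AT1 and 3.45, 3.55 and 3.52 in MCF10.AT1-R. Every resistant array was lower than every parental array, by a log2 difference of -0.75 that did not pass the test over all probe sets (standard error 0.31, adjusted p = 0.387 from limma). The 95% interval of that difference, not adjusted for the number of probe sets, ran from -1.36 to -0.13.

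SNAI2, which encodes the Slug protein, was well above background in both lines. It read 7.70 and 7.75 in MCF10.AT1 and 8.07, 8.10 and 8.21 in MCF10.AT1-R. The resistant arrays were all slightly higher, by 0.41 (95% interval -0.20 to 1.02, adjusted p = 0.808 from limma). SNAI1, the Snail gene, read 3.32 and 2.71 in MCF10.AT1 and 2.74, 2.52 and 2.67 in MCF10.AT1-R. A01 was the only array above its background, so that SNAI1 was at the limit of detection in both lines. TWIST1 read 5.13 and 4.70 in MCF10.AT1 and 4.78, 4.85 and 4.03 in MCF10.AT1-R. Its arrays overlapped, with B04 the lowest, and the difference of -0.36 did not pass the test (95% interval -0.97 to 0.25, adjusted p = 0.828 from limma).

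**Figure D2:**
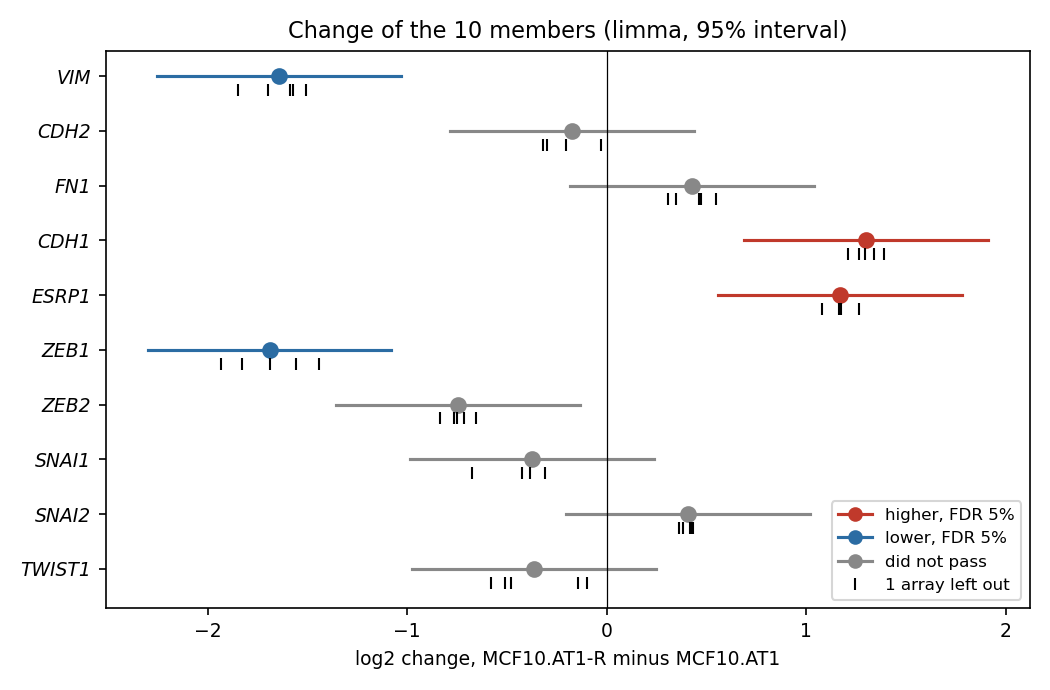
Log2 change of each gene (x axis, MCF10.AT1-R minus MCF10.AT1) with its 95% interval from limma, in red or blue where it passed FDR 5% and in grey where it did not. Black ticks are the changes with 1 array left out. VIM and ZEB1 lie below 0 and CDH1 and ESRP1 above 0 in every case.

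**Figure D3:**
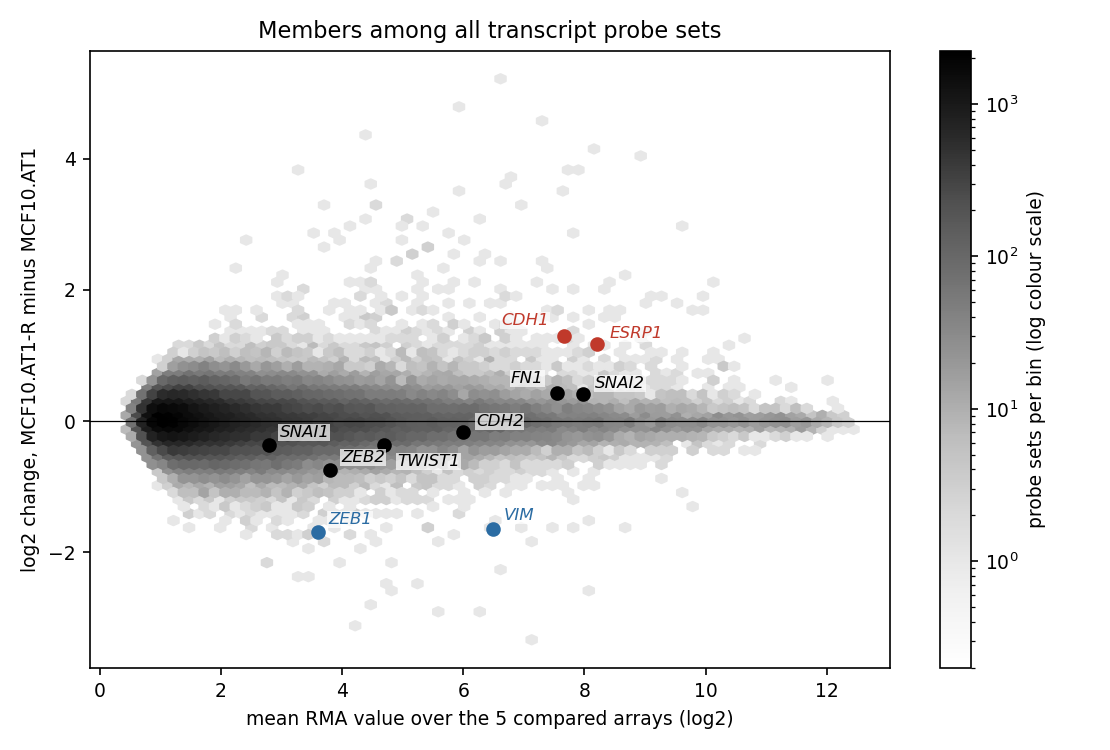
Log2 change (y axis) against the mean RMA value over the 5 compared arrays (x axis, log2) for the 135750 transcript probe sets, as a density in grey, with the 10 genes marked as points. VIM at -1.64 and ZEB1 at -1.69 lie in the lower part of the cloud, CDH1 and ESRP1 lie in its upper part, and CDH2 lies near 0.

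The calls depended on the variance model and on the small number of parental arrays. The fit behind them gave all probe sets a common SD of 0.34, above the residual SD of CDH1 (0.10), ESRP1 (0.08), VIM (0.30) and ZEB1 (0.30). It took that SD as known, so a gene's own spread had no weight in its p-value. For VIM the unadjusted p from limma was 0.000105 without a filter and 1.37e-07 in this fit, with standard errors of 0.24 and 0.31. On simulated data this fit, with or without the trend option, made a larger share of false calls than its FDR of 5%, and the fit without the filter on SD did not. The simulation planted fewer changes than the filtered fit called here, with noise from each probe set's own SD over few arrays. Its share of false calls therefore need not hold for these data. The SD of the filter was taken over all 5 arrays, both lines together. A difference between the lines therefore helped a probe set to enter the fit. The residual SD of CDH1 and of ESRP1 lay under the filter's limit of 0.176. In the fit without the filter on SD 182 of 67875 probe sets passed. CDH1 was the 1 member that passed there (adjusted p = 0.0469 from limma), and ESRP1 had an adjusted p of 0.0672. With limma's trend option, which lets the variance vary with the mean signal, the same 4 genes passed, against 2.68% of probe sets. Without a filter on low and invariant probe sets none of the 10 passed, against 0.130% of all probe sets. The adjusted p in that fit was 0.0701 for VIM, 0.0616 for CDH1, 0.0940 for ESRP1 and 0.0606 for ZEB1 in limma, and 5 of the 10 had an unadjusted p under 0.05, as did 6.70% of all probe sets. VIM passed with any single array left out. CDH1 did not pass without A01 (adjusted p = 0.0889) or A02 (adjusted p = 0.271), and ZEB1 did not pass without A02 (adjusted p = 0.0736). ESRP1 passed only with B03 left out, with adjusted p from 0.0562 without B02 to 0.471 without A02 in the other cases. With A03 added back as MCF10.AT1 none of the 10 passed.

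The wider EMT program was read from 8 lists of other genes, 98 in all, of which 96 had a probe set and 78 entered the filtered fit. In that fit 15 rose and 6 fell, against 0.758% higher and 0.447% lower of all probe sets tested. Without a filter 11 passed in all, against 0.130% of all probe sets. With the trend option 30 passed, against 2.68%, and with A03 added back none (0) passed. The same shares belong beside the counts of each list below. Epithelial adhesion and polarity genes were higher in the resistant line. Of the 15 listed, 6 rose, none fell and 9 did not pass, and the resistant arrays lay above the parental ones for all 15. The median log2 change was 0.92, against 0.01 over all probe sets. CLDN1, a tight junction claudin, rose from 7.31 ± 0.02 (SD, n = 2) to 9.52 ± 0.07 (SD, n = 3), by 2.22 (adjusted p = 8.79e-10 from limma). OCLN (occludin) rose by 1.67, CLDN7 by 1.65, DSP (desmoplakin) by 1.41, PATJ (listed in the files under its older symbol INADL) by 1.34 and LSR, which forms tricellular junctions, by 1.30. EPCAM was 0.78 higher without passing (adjusted p = 0.341 from limma), but passed with the trend option, under which 10 of the 15 rose. Without a filter 4 of the 15 passed. Without A01 or without A02, 3 of the 15 passed.

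Of 10 cadherins and catenins outside the members, 2 rose, none fell and 8 did not pass. The arrays of the lines overlapped for 5 and did not overlap for 5, against 23.3% of all transcript probe sets without overlap. CDH4 and CDH5 differed by -0.30 and -0.19. JUP, which encodes plakoglobin and links cadherins to the cytoskeleton, rose from 6.02 ± 0.16 (SD, n = 2) to 7.28 ± 0.07 (SD, n = 3), by 1.25 (adjusted p = 0.00832 from limma). CDH13, a cadherin anchored by a lipid, rose by 1.07 (adjusted p = 0.0494). Neither passed without A01 or without A02. CDH3, the P-cadherin gene next to CDH1 on chromosome 16, was 0.93 higher and did not pass (adjusted p = 0.148 from limma), but passed with the trend option, under which 4 of the 10 rose. None of the 10 passed without a filter.

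Of 13 listed transcription factors that maintain epithelial identity, 4 rose, none fell and 9 did not pass, with a median log2 change of 0.62. TP63, the basal epithelial factor, rose from 4.32 ± 0.33 (SD, n = 2) to 6.06 ± 0.12 (SD, n = 3), by 1.74 (adjusted p = 8.14e-06 from limma), and EHF rose by 1.72. OVOL2, a repressor of ZEB1, read 3.98 and 3.64 in MCF10.AT1 and 4.71, 4.91 and 5.29 in MCF10.AT1-R. All resistant arrays were above the parental arrays, and the rise was 1.16 (adjusted p = 0.0212 from limma, 0.236 without a filter). KLF4 was lower, by -0.82, without passing (adjusted p = 0.281 from limma), and FOXA1 and ELF3 differed by -0.18 and -0.14 with overlapping arrays. OVOL1 and GRHL1 were within the background on all 5 arrays. The median of the list was the change of OVOL1 itself, whose arrays overlapped.

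**Figure D4:**
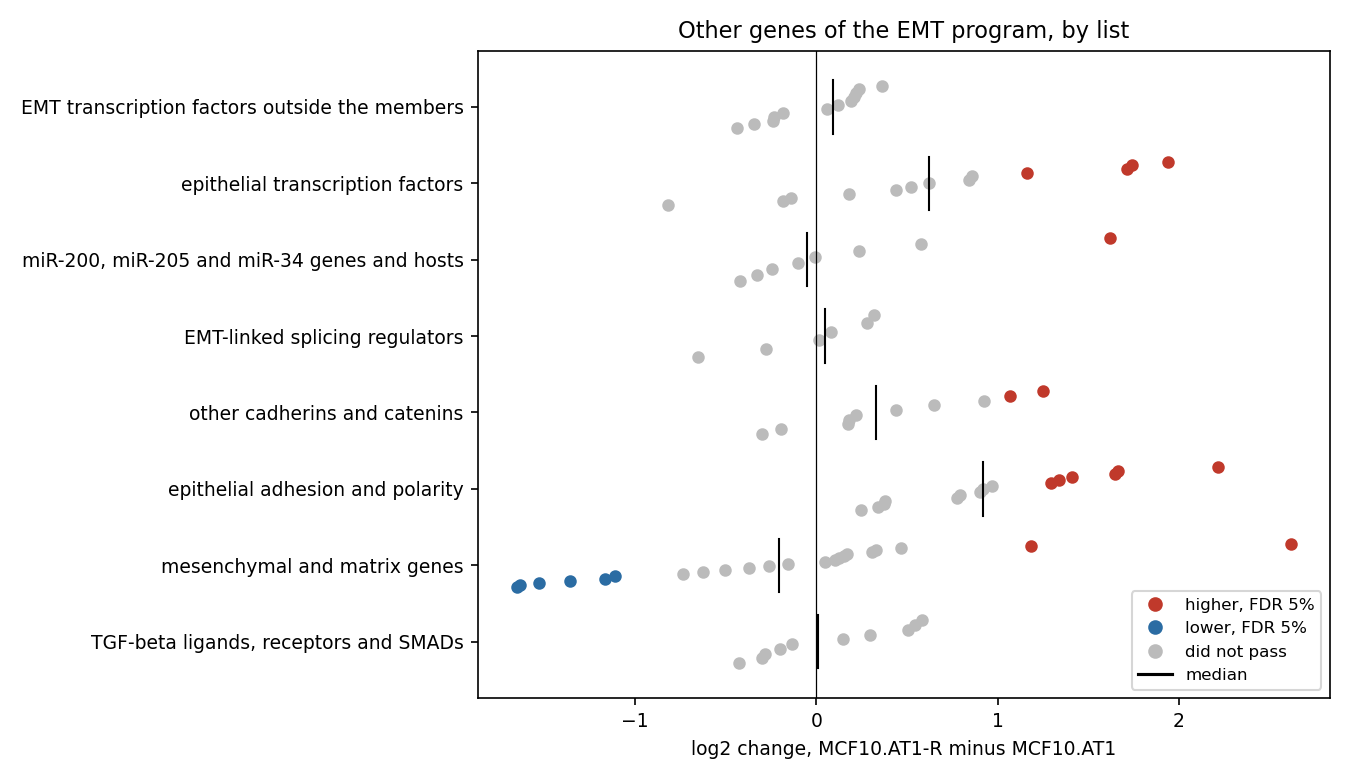
Log2 change (x axis, MCF10.AT1-R minus MCF10.AT1) of each gene of the 8 lists (y axis), 1 point a gene, in red or blue where it passed FDR 5% and in grey where it did not. Black bars are list medians, at 0.92 for epithelial adhesion and polarity and at -0.21 for mesenchymal and matrix genes, and the latter list has called genes on both sides of 0.

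The mesenchymal and matrix genes changed in both directions. Of 22 listed, 6 fell, 2 rose and 14 did not pass, with a median log2 change of -0.21. S100A4, a calcium-binding protein of motile cells, fell from 6.32 ± 0.24 (SD, n = 2) to 4.67 ± 0.33 (SD, n = 3), by -1.65 (adjusted p = 3.33e-05 from limma). LOX, which crosslinks collagen, changed by -1.63, ITGA5, the fibronectin receptor subunit, by -1.53, MMP2, a gelatinase, by -1.17 and FBN1 (fibrillin) by -1.11. POSTN fell within the background on all 3 resistant arrays, so its fall has only a bound of at least 0.50 on the log2 scale, from 3.43 in MCF10.AT1. With the 99th percentile of the negative controls as background POSTN lay within it in both lines, and no bound remained. TAGLN, an actin-binding protein of smooth muscle and myoepithelium, rose from 3.85 ± 0.60 (SD, n = 2) to 6.47 ± 0.31 (SD, n = 3), by 2.62 (adjusted p = 4.93e-14 from limma). FAP, a membrane serine protease of activated fibroblasts, rose by 1.18 (adjusted p = 0.0175). Without a filter 2 falls and 1 rise passed. S100A4 (adjusted p = 0.0711), FAP (0.0884), MMP2 (0.127), FBN1 (0.193) and POSTN (0.282) did not pass in limma. The falls numbered 3 without A01, 2 without A02 and 3 without B03, and the rises numbered 1 without A01, without A02 and without B04.

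Among the microRNA genes and hosts MIR205HG was the gene that passed. MIR205HG, the host transcript of miR-205, read 7.56 and 7.57 in MCF10.AT1 and 9.16, 9.15 and 9.25 in MCF10.AT1-R. It was higher on every resistant array, by 1.62 on the log2 scale (adjusted p = 5.73e-05 from limma). It also passed without a filter and with any of the 5 arrays left out. Mature miR-205, whose seed is shown above, was not matched to a probe set of its own. Of the 10 listed microRNA genes and hosts 8 had a probe set, 1 rose and none fell. MIR34A was above background on all 5 arrays, at 4.53 and 4.44 in MCF10.AT1 and 4.39, 3.84 and 4.23 in MCF10.AT1-R. It was lower on every resistant array, with a difference of -0.33 that did not pass (adjusted p = 0.835 from limma). MIR200A, MIR200B, MIR429 and MIR141 lay within the background on all 5 arrays, and MIR200C lay above it on A02 alone. MIR200CHG, the host of miR-200c and miR-141, was above background on all 5 arrays, at 3.45 and 3.94 in MCF10.AT1 and at 4.16, 3.72 and 3.89 in MCF10.AT1-R. Its arrays overlapped, with a difference of 0.23 (adjusted p = 0.859 from limma).

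In limma no gene passed among the 11 tested of 12 other EMT transcription factors, the 3 tested of 6 EMT-linked splicing regulators or the 8 tested of 10 TGF-beta ligands, receptors and SMADs. The splicing regulators QKI, RBFOX2 and HNRNPM did not enter that fit. In the fit without a filter, which held every gene of these lists, 1, 1 and 2 genes had an unadjusted p under 0.05 (6.70% of all probe sets did) and none passed FDR 5%. The largest difference among genes above background was -0.44 for TCF4 in the first of these lists, -0.65 for MBNL1 in the second and 0.58 for SMAD2 in the third. MBNL1 passed with the trend option. ESRP2, the paralog of ESRP1, read 3.54 and 3.56 in MCF10.AT1 and 4.26, 3.57 and 3.77 in MCF10.AT1-R. The resistant arrays were higher, B03 only barely so, and the difference of 0.32 did not pass (adjusted p = 0.836 from limma).

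Antisense transcripts that neighbour the members were looked up after the other values were known. ZEB1-AS1, which starts beside ZEB1 on the opposite strand, read 5.16 and 5.19 in MCF10.AT1 and 5.41, 5.06 and 5.56 in MCF10.AT1-R. Its arrays overlapped, with a difference of 0.17 (adjusted p = 0.899 from limma), whereas ZEB1 fell. VIM-AS1 lay above background on 1 array of each line, with overlapping arrays, and ZEB2-AS1 was within it on all 5.

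The labelled epithelial identity was checked with markers, some of which also stand in the lists above. All 6 listed mammary epithelial markers (KRT5, KRT14, KRT17, TP63, EPCAM and LAMB3) lay above background on all 5 arrays. All but EPCAM, 5 in all, rose, against 0.758% of all probe sets tested. The sum of the log2 values of the 6 was 39.0 to 39.8 in MCF10.AT1 and 51.2 to 52.4 in MCF10.AT1-R. Of 7 fibroblast markers, PDGFRB and LUM were within the background on all 5 arrays, and PDGFRA read 2.75 to 3.39. DCN, at a mean of 5.32 in MCF10.AT1, changed by -2.15. With B03, which was under its background, raised to it, the change was -2.08. The sum over the 7 was 30.2 to 30.7 in MCF10.AT1 and 27.6 to 28.7 in MCF10.AT1-R. The collagens COL1A1, COL1A2 and COL3A1 lay above background on all 5 arrays, with means of 7.03, 5.99 and 4.54 in MCF10.AT1. Between the lines they differed by 0.15, 0.13 and -0.16. Of 3 endothelial markers PECAM1 fell by -1.12, with sums of 11.8 to 12.0 and 10.2 to 10.9. VWF lay above background on all 5 arrays, at a mean of 4.34 in each line. Among 3 leukocyte markers CD14 fell by -1.12 from a mean of 4.91 in MCF10.AT1. CD3E lay above background on all 5 arrays and PTPRC was within it, with sums of 9.11 to 10.8 and 8.97 to 9.05. The part of these markers in the fall of VIM and ZEB1 was not tested.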

How the data were processed

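Total RNA of 2 lines, with 3 arrays each, was hybridized to Clariom D arrays. The authors preprocessed the CEL files by RMA with the Bioconductor packages affy and oligo and deposited log2 values for 6 arrays, unfiltered. The genome build, annotation and package versions are not given in the sources used here. The array names match no sample title, and the line of each array was taken from the study's plot of its arrays. The 2995 control probe sets were left out of every comparison. A03 was left out as in the study's methods. Probe sets with a mean above the median of all (1.88) and an SD above its 25th percentile (0.176) over 5 arrays entered limma 3.58.1 (lmFit, eBayes; R 4.3.3). P-values were adjusted by Benjamini and Hochberg over all 51457 probe sets tested, at an FDR of 5%. The study does not state its limits. On simulated data with known changes the fit recovered their mean size but missed most changes of 1 on the log2 scale. Its false calls exceeded the nominal FDR with the SD filter, more so with the trend option, and stayed under it with the low-expression filter alone. The simulation planted fewer changes than the filtered fit called on the real data, and its noise came from each probe set's own SD. These shares of false calls therefore need not hold for the real data. Intervals are the change ± 1.96 standard errors. The members, lists and tests were chosen with earlier results of these data known. Named genes are the members, the listed genes that passed, except 1 that is not reported here, and, in a list where none passed, the gene with the largest change above background. ESRP2, EPCAM, CDH3, KLF4 and the antisense genes were added after their values were seen. Other listed genes that did not pass are also named outside this rule. Among them are CDH4, CDH5, FOXA1, ELF3, OVOL1, GRHL1, QKI, RBFOX2, HNRNPM and the microRNA genes and host. Of 98 genes in the pathway lists 96 were matched, PATJ and MIR200CHG through older symbols in RefSeq. The number of arrays limits the precision.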

Additional observations from a re-analysis of the deposited data

Results flagged for a closer look

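On A03, the MCF10.AT1 array outside the comparison, ZEB2 read 4.71. This was above the array's background of 3.15 and above ZEB2 on all of the 5 other arrays, of which the highest was A02 at 4.35. VIM and TWIST1 were the only other members above background on A03, at 3.65 and 3.69, and both read lower there than on the other arrays.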

How the results depend on the processing

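Against 620 probe sets called over 5 arrays, 177 were called without a filter, 182 with the low-expression filter alone, 1377 with limma's trend option, 1086 with that filter and the trend option (chosen after the data were examined), 26 with A03 added back, and 271 to 595 with 1 of the 5 arrays left out. Against 4 of the 10 members called, none was called without a filter or with A03 added back (0 in each), 1 (CDH1) with the low-expression filter alone, and 1 to 4 with 1 array left out. The count stayed at 4, with the same genes, under the trend and robust options, array weights, repeated quantile normalization, median centring and averaged probe sets. With A03 added back CDH2 changed direction to 0.99 and TWIST1 to 0.0435, neither past the threshold, and no other direction of the members changed under the alternatives run. No paired analysis was possible because the array names carry no replicate number. With 1 MCF10.AT1 array left out, the spread came from the resistant arrays alone and was taken to hold for the single parental array. Genes near the background, such as SNAI1 and the microRNA genes, are limited by signal.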
